A study of Mus musculus with 110 samples.

Results

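The most distal VH gene segments of the mouse immunoglobulin heavy chain locus (Igh) lie beyond 2000 kb from the inner end of the VH region, the end next to the D segments. In the deposited coordinates of chromosome 12 this stretch runs from 116829805 to 117639092 and covers 809.3 kb of the 2809 kb VH region. All junctions with a prey position there were taken, in every full junction library. The rule used position alone, though earlier results of these data were known when it was chosen. They were 20633 of the 3602400 junctions in 98 libraries, or 0.573% of all junctions and 6.61% of the 312039 VH junctions. The border cut no peak: the 10 kb on the distal side of it held 1345 junctions and the 10 kb on the other side 1527. Of its junctions, 98.8% fell in segments that matched a V gene or carried a V recombination signal, and 98.5% had the plus orientation.

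Each VH segment encodes the variable part of an antibody heavy chain. The RAG endonuclease cuts DNA at recombination signals, each made of a heptamer, a spacer and a nonamer, and a VH segment is joined to a D segment that has already been joined to a JH segment. RAG sits at the D and JH end of the locus, and cohesin draws distant chromatin past it by loop extrusion, which CTCF bound at DNA can slow or stop. IGCR1 is a regulatory element between the VH and D segments that contains CTCF sites, and the most distal VH segments have the longest way to travel.

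The study measured V(D)J junctions by LAM-HTGTS V(D)J-Seq, a linear-amplification method that reads from a JH4 bait into the prey joined to it, to study loop extrusion and RAG scanning at Igh. The 98 libraries came from 56 replicates in 13 groups. The cell lines were v-Abl transformed pro-B lines, all RAG2 deficient with an Emu-Bcl2 transgene, given RAG2 by nucleofection and 3 µM STI-571, an Abl kinase inhibitor that arrests the cells, for 4 days. In the IAA groups the auxin IAA at 500 µM was added 6 h before the inhibitor and kept during it, which triggers breakdown of a degron-tagged protein in cells that express OsTIR1. The lines were parental (4 replicates untreated and 4 with IAA), Ostir1 knock in only (4 and 4), CTCF-mAID-GFP tagging only (4 and 4), CTCFdegron (6 and 6), Rad21degron (3 and 3; Rad21 is a cohesin subunit), and Rad21degron with IGCR1 deleted (4 and 4). The thirteenth group was wild-type 129SV bone marrow pro-B cells (6 replicates), for 5 of which the labels give a FACS sort of B220+CD43+IgM- cells. They have their own RAG, and their labels name no treatment, so they differ from the lines in more than the state of CTCF. Nothing in the labels says that replicates were separate cultures or animals, or how many clones stand behind a line, so the p-values below measure the spread between these samples.

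Recombination signals that mm9 holds beside these segments are shown first, on the minus strand, 5′ to 3′, with the heptamer and nonamer in capitals. Prey sequences run from the coding end into the V segment, so the signals of the cells themselves were not read. Among the segments printed, the median mismatch of prey reads to mm9 ran from 0% (outermost) to 7.23% (at 116886567). The 3 most joined segments of bone marrow come first, then the unannotated segment at 116886567, the innermost segment Ighv1-55 and the outermost one at 117638098. Positions in these lines are mm9, while a segment without an annotated gene is called by its peak position in the deposited coordinates.
Ighv1-67, chr12:116842111-116842150: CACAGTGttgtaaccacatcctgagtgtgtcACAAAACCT
Ighv8-12, chr12:116886117-116886155: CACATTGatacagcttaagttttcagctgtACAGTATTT
Ighv1-64, chr12:116745717-116745755: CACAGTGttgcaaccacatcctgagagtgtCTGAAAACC
unannotated segment, chr12:116496304-116496342: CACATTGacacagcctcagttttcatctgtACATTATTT
Ighv1-55, chr12:116446267-116446305: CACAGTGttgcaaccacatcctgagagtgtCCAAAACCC
outermost segment, chr12:117247832-117247869: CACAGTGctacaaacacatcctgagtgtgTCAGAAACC

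Junctions beyond 2000 kb piled up in 36 segments, and mm9 held a signal at 34 of them. Of the 36, 29 lay at a gene of the mm9 annotation and 7 did not, and 4 of the 33 annotated distal V genes held no segment. By the annotated gene, or by the closest V gene in sequence for the 7 without one, 29 belonged to the Ighv1 family and 6 to Ighv8. The remaining 1 matched neither. The heptamer CACAGTG stood at 28 of the 29 Ighv1 segments, and CACATTG at the 4 Ighv8 segments with a signal. The spacer was 22 bases in 24 Ighv1 segments, and the nonamer TCAGAAACC stood at 18. Among the 34 signals only that of Ighv1-67 had a spacer of 24 bases, although a reading with 23 gives 1 nonamer match fewer. In mm9 the Ighv1-67 gene spans chr12:116842151-116842444 and its coding end touches the signal. The outermost segment has no gene in the mm9 annotation, and RefSeq's order of genes (GRCm38) places Ighv1-86 beyond Ighv1-85.

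In mm9, CTCF motifs stood beside the signal of many V genes nearer to the D segments, and of none of the distal ones. The core of the CTCF motif was searched on both strands. Within 200 bases on the signal side it was found at 0 of the 36 distal segments and at 0 of the 33 annotated distal genes, against 24 of the 78 annotated V genes nearer to D (30.8%). Within 1000 bases on either side it was found at 2 of the 33 distal genes (6.06%) and at 27 of those 78 (34.6%). A match here is a description of the letters and says nothing of CTCF binding.

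Depth set how firmly the groups can be read. Total junctions per replicate ranged from 1263 to 231023, and the 3 Rad21degron replicates with IAA had only 5566 together. Distal shares were averaged over the libraries named a and b of a replicate, and in 36 of 42 such pairs the a library had the higher share. In CTCFdegron this held in 6 of 6 pairs untreated and 6 of 6 with IAA (0.412% against 0.305% and 1.80% against 1.64%, exact sign-flip p = 0.0312 each, 0.156 after Benjamini-Hochberg adjustment over 10 groups), and the labels do not say what a and b stand for. The read names give 11 sequencing runs: both CTCFdegron groups share 1 run, while parental, CTCFdegron and bone marrow replicates share none, so the run and the group cannot be told apart in comparisons between them. The titles of 4 libraries say IAA where their treatment label does not, and the 8 comparisons of shares that use them kept their calls without those libraries; segment, insert and IAA-response tests were not rerun.

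Distal joining was frequent in bone marrow, intermediate in the CTCFdegron line with IAA, and rare in the parental line. In bone marrow the share of all junctions that lay beyond 2000 kb ran from 2.18% to 4.11% over 6 replicates, with a median of 3.33% (mean 3.23% ± 0.831, SD, n = 6). In CTCFdegron with IAA it ran from 1.47% to 2.15%, with a median of 1.61% (1.72% ± 0.282, n = 6). In untreated CTCFdegron it ran from 0.206% to 0.585%, with a median of 0.305% (0.359% ± 0.168, n = 6). None of these 3 groups overlapped another. The parental line had 0.0396%, 0.0676%, 0.0668% and 0.0804% untreated (0.0636% ± 0.0172, n = 4), below every replicate of those 3 groups.

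**Figure D1:**
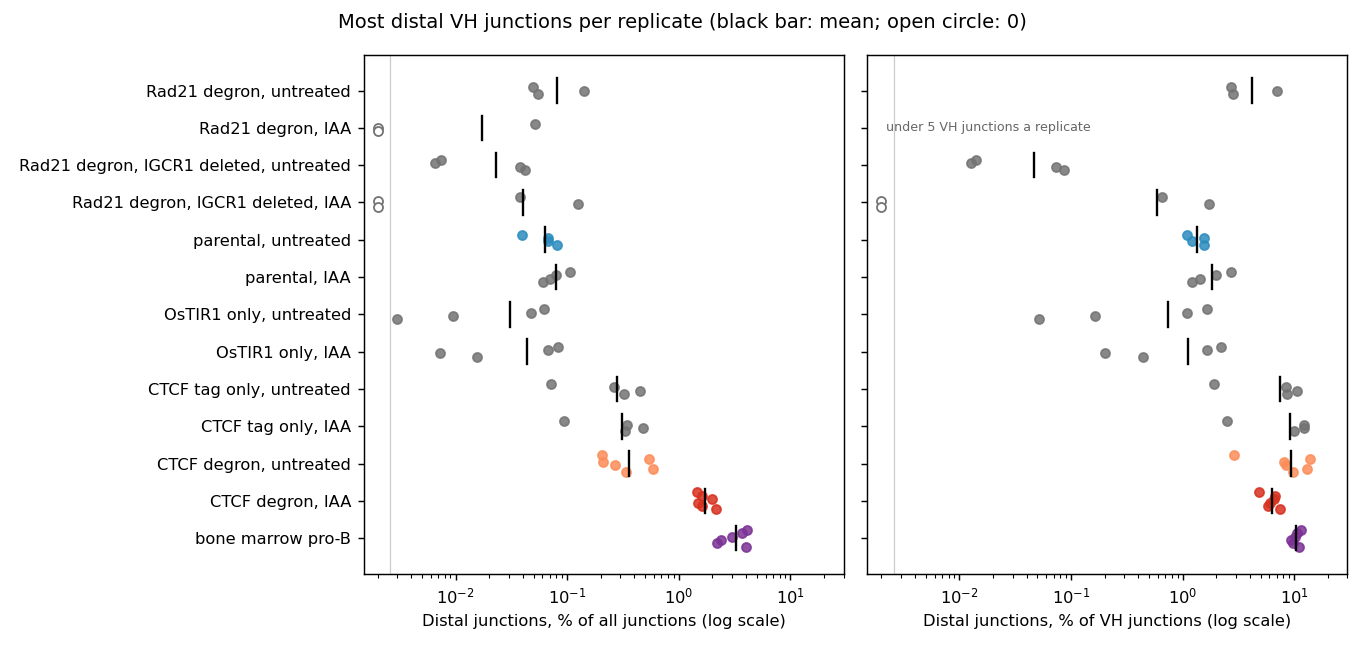
Distal junctions per replicate as a percent of all junctions (left) and of VH junctions (right), both on log axes, for 13 groups; points are replicates, black bars are means, and open circles stand for 0. Bone marrow replicates sit between 2.18% and 4.11% of all junctions and CTCFdegron replicates with IAA between 1.47% and 2.15%, above every other cell line replicate.

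The CTCFdegron line joined distal VH segments 4.79 times as often with IAA as without. Means lay 1.36 percentage points apart (exact two-sided permutation p = 0.00216, which is as low as 6 against 6 can go; 0.0122 after Benjamini-Hochberg adjustment over 18 comparisons), and it lay within 1 sequencing run. The rest of the VH region moved too. The innermost 500 kb held 2.95% ± 1.37 of all junctions untreated and 18.1% ± 3.32 with IAA, and the zone from 1200 to 2000 kb 0.501% ± 0.228 and 5.17% ± 1.49 (n = 6 each). As a share of VH junctions alone, the distal stretch stood at 9.36% ± 3.99 untreated and 6.26% ± 0.874 with IAA, a difference of -3.10 points that did not pass the test (exact permutation p = 0.102; adjusted 0.153). That comparison turns on single items. Without untreated replicate 1, which had 2.89% while the other five had 8.06% to 13.9%, the difference was -4.39 points (p = 0.00216), and with the Ighv1-67 peak left out it was -4.68 points (p = 0.0130).

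**Figure D2:**
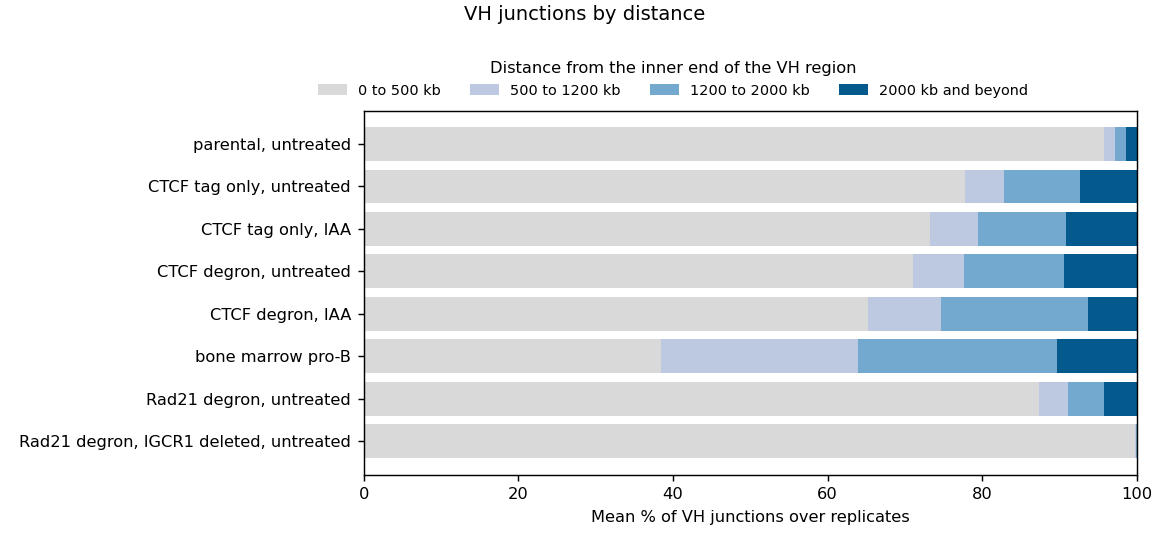
Mean percent of VH junctions in 4 zones of distance from the inner end of the VH region, for 8 groups; bars are stacked to 100%. The zone of 2000 kb and beyond holds 10.4% in bone marrow, 6.26% in CTCFdegron with IAA and 1.35% in the untreated parental line.

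Lines that lacked a complete CTCF degron showed no IAA response of that size. Same-numbered pairs of CTCFdegron rose by 1.04 to 1.81 points, 1.36 ± 0.349 on average (n = 6). The parental line moved by 0.0158 ± 0.0360 points, Ostir1 knock in only by 0.0129 ± 0.0108, and CTCF tagging only by 0.0324 ± 0.0323 (n = 4 pairs each). Deviations of same-numbered replicates from their group mean correlated at -0.386 to 0.820 in CTCFdegron and -0.0694 to 0.405 in the parental line. Numbers were thus not shown to pair the samples in these lines, and the range and SD of their pairs rest on numbering alone. The CTCFdegron response exceeded those of the parental line, Ostir1 knock in only and CTCF tagging only by 1.34, 1.35 and 1.33 points (exact permutation p = 0.00476 for each, the smallest that 6 against 4 pairs allows and the same after adjustment over these 3). Within each of the control lines, IAA against untreated gave p = 0.343, 0.543 and 0.686 in that order by the exact permutation test, adjusted 0.441, 0.611 and 0.726, which does not show that the values were equal. In CTCF tagging only, where deviations of same-numbered replicates correlated in every pair, 4 of 4 pairs were higher with IAA. They rose by 0.00191 to 0.0780 points (exact sign-flip p = 0.125, the lowest possible with 4 pairs).

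The untreated CTCFdegron line already joined distal segments more often than the parental line. Its mean was 5.64 times as high, a difference of 0.295 points (exact permutation p = 0.0190; adjusted 0.0381), and as a share of VH junctions 9.36% stood against 1.35% ± 0.244, a difference of 8.01 points (p = 0.0143; adjusted 0.0321). The line that carries the CTCF tag without OsTIR1 lay at a like level untreated, with 0.0716%, 0.262%, 0.451% and 0.326% of all junctions (0.278% ± 0.158, n = 4) and 7.39% ± 3.78 of VH junctions. Its replicate 1 was low both untreated and with IAA (0.0716% and 0.0942%), while the other three ran from 0.262% to 0.478% over both. No test between the tag-only and other lines was planned, and their levels are given as values.

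Ostir1 knock in only split by run. Replicates 1 and 2 had 0.0618% and 0.0473% untreated and 0.0834% and 0.0669% with IAA. Replicates 3 and 4, on another run, had 0.00955% and 0.00300% untreated and 0.00726% and 0.0157% with IAA, below every parental replicate. Parental replicates on that same run held 0.0613% to 0.0804%. Run and replicate number go together in Ostir1 knock in only, and the source of its low values was not tested. Untreated replicates 3 and 4 had 9 distal junctions of 95157 and 2 of 66693.

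Cells with IGCR1 deleted had almost no VH junctions at the far end of the region and nearly all at the near end. Untreated Rad21degron cells with IGCR1 deleted had 10 distal junctions among 24616 VH junctions, or 0.0140%, 0.0127%, 0.0740% and 0.0874% of VH junctions in the 4 replicates (0.0470% ± 0.0393). Untreated Rad21degron cells with IGCR1 in place had 2.69%, 7.07% and 2.85% (4.2% ± 2.49, n = 3). The groups did not overlap. They differed by -4.15 points (p = 0.0286 in the exact permutation test, the lowest possible with 4 against 3; adjusted 0.0468). As a share of all junctions the means were 0.0232% ± 0.0189 and 0.0813% ± 0.0510, a difference of -0.0581 points (p = 0.0286; adjusted 0.0468). The IGCR1-deleted libraries were all b libraries, while the Rad21degron shares average a and b. With b libraries only, a setting chosen after seeing the data, the difference in the share of all junctions was -0.0367 points and did not pass (p = 0.171), and that in the share of VH junctions was -3.18 points (p = 0.0286). The groups share no sequencing run, so the run and the deletion cannot be told apart. With any replicate left out, neither comparison can reach 0.05, and without the Rad21degron replicate 2 the differences were -2.72 and -0.0287 points. With the Ighv1-67 peak left out, the difference in the share of all junctions was -0.0503 points (p = 0.0571). In the innermost 500 kb, untreated cells with IGCR1 deleted held 99.8% ± 0.102 of their VH junctions (n = 4). Untreated Rad21degron cells with IGCR1 in place also held most of theirs there, 87.4% ± 5.28 (n = 3). As a share of all junctions that zone held 50.6% ± 2.35 with IGCR1 deleted and 1.66% ± 0.0649 with it in place. The distal share of VH junctions was thus taken of a much larger VH total in the deleted cells.

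After IAA, Rad21degron cells gave few junctions. They had 1 distal junction among 5566, against 81 among 113444 untreated, a ratio of shares of 0.252 with a 95% exact interval from 0.00629 to 1.44 that covers counting error only. By replicate the shares with IAA were 0.0514%, 0% and 0%, and a count of 0 among 1263 and 2492 junctions allows up to 0.238% and 0.120%. The difference of -0.0642 points did not pass (exact permutation p = 0.200, smallest possible 0.100; adjusted 0.277), and on the 3 runs it was 0.00241, -0.140 and -0.0549 points. With IGCR1 deleted, 3 of 8434 junctions were distal with IAA and 10 of 48627 without, a ratio of 1.73 (0.306 to 6.72). That difference was 0.0172 points (p = 0.886; adjusted 0.886), or 0.547 points of VH junctions (p = 0.429; adjusted 0.514), and without IAA replicate 3 it turned to -0.0107 points of all junctions. No difference was shown in either line.

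Bone marrow pro-B cells exceeded the untreated parental line and CTCFdegron with IAA on each scale. Their distal share of all junctions was 50.8 times that of the untreated parental line, or 3.16 points more (p = 0.00476 in the exact permutation test, the lowest possible with 6 against 4; adjusted 0.0122). It was 1.88 times that of CTCFdegron with IAA, a difference of 1.51 points (p = 0.00216; adjusted 0.0122). As a share of VH junctions bone marrow had 10.4% ± 0.759, 4.09 points above CTCFdegron with IAA (p = 0.00216; adjusted 0.0122). On that scale untreated CTCFdegron (2.89% to 13.95%) and CTCF tagging only with IAA (2.52% to 12.3%) reached above the highest bone marrow replicate (11.4%). CTCFdegron with IAA in turn was 27.0 times the parental line in its share of all junctions and 4.91 points above it in its share of VH junctions (p = 0.00476 each; adjusted 0.0122). The bone marrow replicates came from 2 runs, with means of 3.59% and 2.87% (3 replicates each).

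Use was uneven within the distal stretch. In bone marrow all 36 segments held junctions, the top 3 held 38.3% and the top 10 held 72.4%. Ighv1-67 led with 0.340% to 0.655% of all junctions (median 0.507%; mean 0.502% ± 0.124, n = 6), followed by Ighv8-12 at 0.398% ± 0.0947, Ighv1-64 at 0.337% ± 0.0878 and Ighv8-11 at 0.224% ± 0.0525. Those 4 lie between 2306 and 2447 kb from the inner end. Next came Ighv1-84 (0.196%), Ighv1-55 (0.194%), Ighv1-76 (0.158%), Ighv1-80 (0.149%), Ighv1-77 (0.0886%) and Ighv1-63 (0.0773%). Joining did not fall steadily with distance: Ighv1-84, at 2779 kb, was used as often as Ighv1-55 at 2007 kb, and over 36 segments the rank correlation of use with distance was -0.03 in bone marrow and -0.15 in CTCFdegron with IAA. These points share libraries, and the correlations are descriptions.

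**Figure D3:**
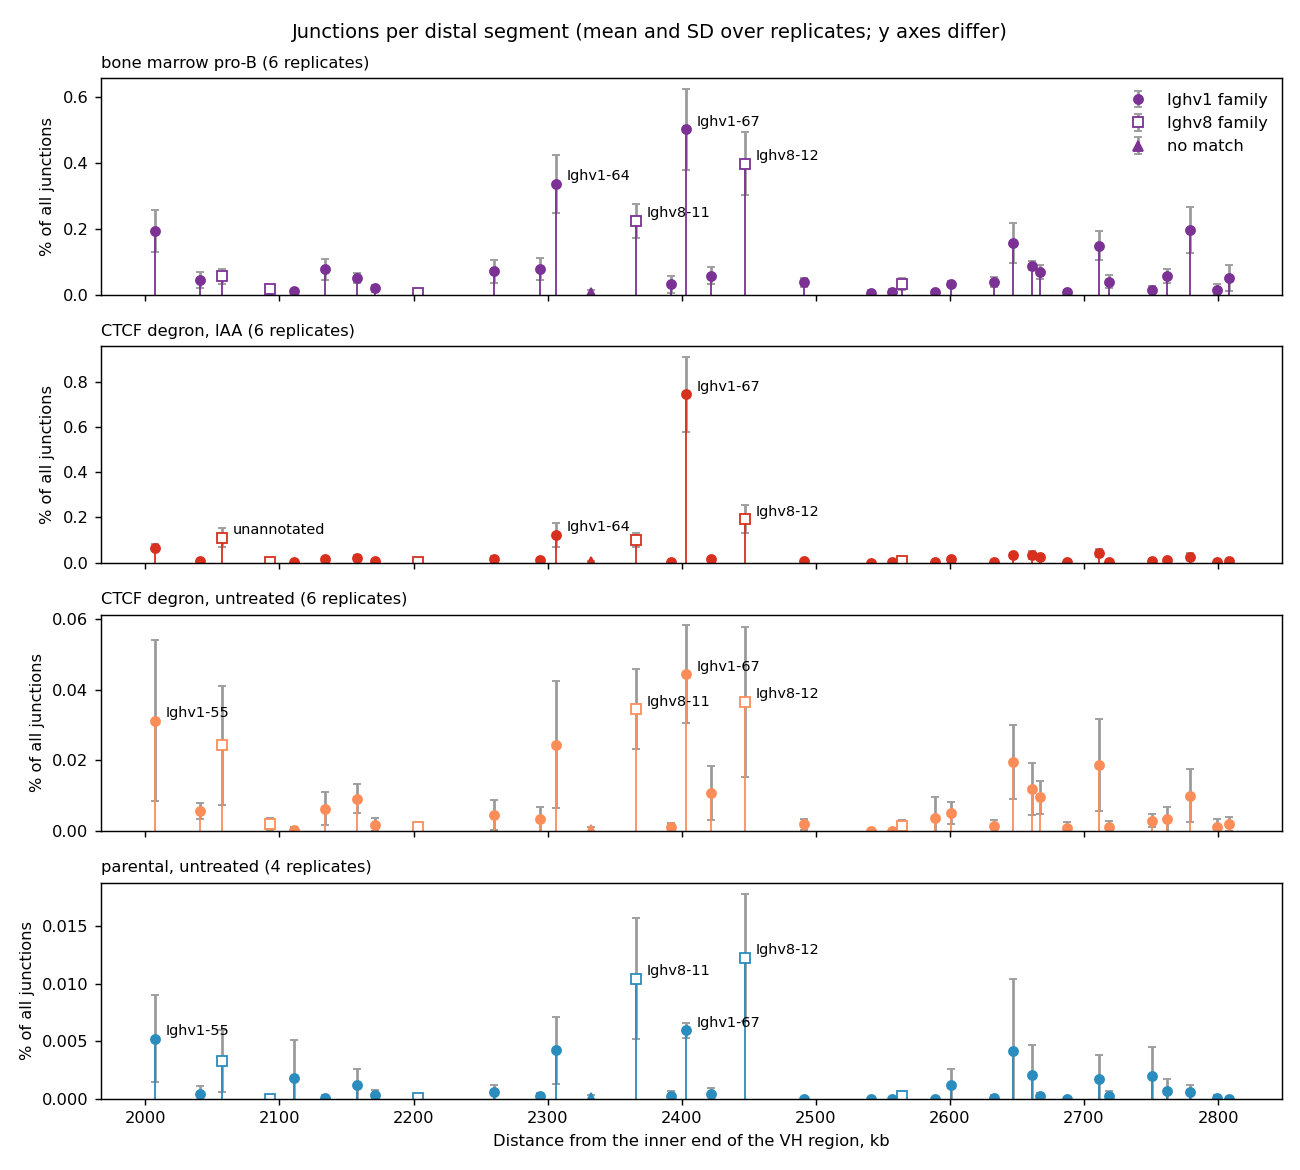
Percent of all junctions at each of the 36 distal segments against distance from the inner end of the VH region in kb, for 4 groups with y axes of their own; points are means over replicates and bars are SD. Ighv1-67 leads in bone marrow (0.502%) and stands far above the other segments in CTCFdegron with IAA (0.744%).

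In CTCFdegron with IAA the order was similar but Ighv1-67 stood apart. It had 0.524% to 0.948% of all junctions (median 0.783%; mean 0.744% ± 0.166, n = 6), while Ighv8-12 had 0.193% ± 0.0604, Ighv1-64 0.122% ± 0.0514, the unannotated segment at 116886567 (Ighv8 family) 0.111% ± 0.0417, and Ighv8-11 0.0990% ± 0.0311. Ighv1-55, Ighv1-80, Ighv1-77, Ighv1-76 and Ighv1-84 had 0.0660%, 0.0430%, 0.0329%, 0.0322% and 0.0272%. The inner 18 segments took 86.1% of the distal segment junctions, against 68.1% in bone marrow. Over 36 segments the use in CTCFdegron with IAA and in bone marrow correlated with Spearman's rho 0.89 and Pearson's r 0.81, given as a description. With untreated CTCFdegron the rho was 0.94 and with untreated CTCF tagging only 0.93, so the like order was not particular to bone marrow.

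All distal segments that could be tested in CTCFdegron were higher with IAA. A segment was tested where it had at least 10 junctions on average over the replicates of both groups together, in limma with voom weights over all VH and D segments, on the scale of all junctions. Of the 36, 7 were tested and 7 called higher at an adjusted p under 0.05, where 87.1% of the 70 segments tested over the locus were higher and 1.43% lower, so the share called is near the background. Of the 7, 4 did not overlap between the groups, against 55 of the 70. Ighv1-80 passed the minimum only through the IAA group. Ighv1-67 moved most, by log2 4.06 (SE 0.31, limma adjusted p = 5.39e-18), from 0.0444% to 0.744%, with 6 of 6 replicates above every untreated one. Ighv8-12 followed with 2.43 (SE 0.37), Ighv1-64 with 2.25 (SE 0.44), the segment at 116886567 with 2.23 (SE 0.40) and Ighv8-11 with 1.5 (SE 0.36). Ighv1-80 (1.24, SE 0.47) and Ighv1-55 (1.22, SE 0.41) moved least. The median over the 7 was 2.23, against 2.79 over all segments tested and 3.54 over the other VH segments. On the scale of VH junctions the median of all segments shifted by -2.82, and Ighv1-67 remained higher (1.23) while 3 distal segments were called lower, with 21 higher and 23 lower of all 70. With median-of-ratios scaling the median shifted by -2.14, with 1 distal segment higher and 1 lower, and 30 higher and 17 lower of all 70.

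Against the untreated parental line, 6 distal segments were tested for CTCFdegron with IAA and 6 were higher (background 87.0% of 69 higher and 4.35% lower). Ighv1-67 again moved most, by 6.81 (SE 0.42, limma adjusted p = 4.80e-13), from 0.00595% to 0.744%. The segment at 116886567 was higher by 4.78, Ighv1-64 by 4.45, Ighv8-12 by 4.24, Ighv1-55 by 3.34 and Ighv8-11 by 2.87. The median of the 6 was 4.35, against 4.83 over all segments. Of these 6, 4 passed the minimum only through the IAA group, Ighv1-67 among them.

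Bone marrow exceeded the parental line at 25 of 25 distal segments tested, with a background of 95.1% of 143 segments higher and 2.80% lower. Ighv1-84 had the largest limma estimate, log2 6.71 (SE 0.79, limma adjusted p = 6.62e-10), with mean shares of 0.000550% and 0.196%, ahead of Ighv1-67 (6.26, SE 0.54), Ighv1-59 (6.06, SE 0.87), Ighv1-64 (5.97, SE 0.61), Ighv1-76 (5.78, SE 0.70) and Ighv1-63 (5.74, SE 0.84). These rested on 5, 28, 1, 24, 9 and 2 parental junctions in that order. The limma values weight replicates and add 0.5 to each tally, so they are not ratios of the mean shares, and their order is uncertain. The outermost segment and the one at 117320326 had no junction among the 488632 of the parental line. Against a floor of 3 counts over that group (0.000614%), the bone marrow means were 82.6 and 62.0 times as high. These ratios leave out the spread of bone marrow. Its replicates ran from 0.00712% to 0.106% at the outermost segment and from 0.0166% to 0.0553% at the one at 117320326. The median over the 25 was 5.14, against 5.38 over all segments, and 23 of the 25 passed the minimum only through bone marrow, every segment named here among them.

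Bone marrow against CTCFdegron with IAA gave calls in both directions. Of 25 tested, 23 were higher in bone marrow (background 68.1% of 141) and 2 were lower (16.3%). The largest differences were at Ighv1-75 (log2 3.63, SE 0.53), Ighv1-81 (3.13, SE 0.52), Ighv1-66 (2.85, SE 0.64), Ighv1-63 (2.83, SE 0.54), Ighv1-84 (2.83, SE 0.41) and the segment at 117320326 (2.69, SE 0.52). Ighv1-75, for example, ran from 0.0190% to 0.0641% in bone marrow (median 0.0354%), and had no junction in 4 of 6 CTCFdegron replicates with IAA. The 2 segments lower in bone marrow were Ighv1-67 (-0.54, SE 0.21, limma adjusted p = 0.0177) and the one at 116886567 (-1.08, SE 0.33, adjusted p = 0.00349). Their replicate values overlapped between the groups. The median over the 25 was 1.88, against 1.58 over all segments, and with median-of-ratios scaling, which shifted the median of all segments by -1.17, 11 were higher and 2 lower, beside 58 higher and 40 lower of all 141. Of the 25, 17 passed the minimum only through bone marrow, among them all those named as the largest differences. Those averaged 0.833 to 8.17 junctions per replicate in CTCFdegron with IAA, so a high bone marrow value was their condition of entry.

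**Figure D4:**
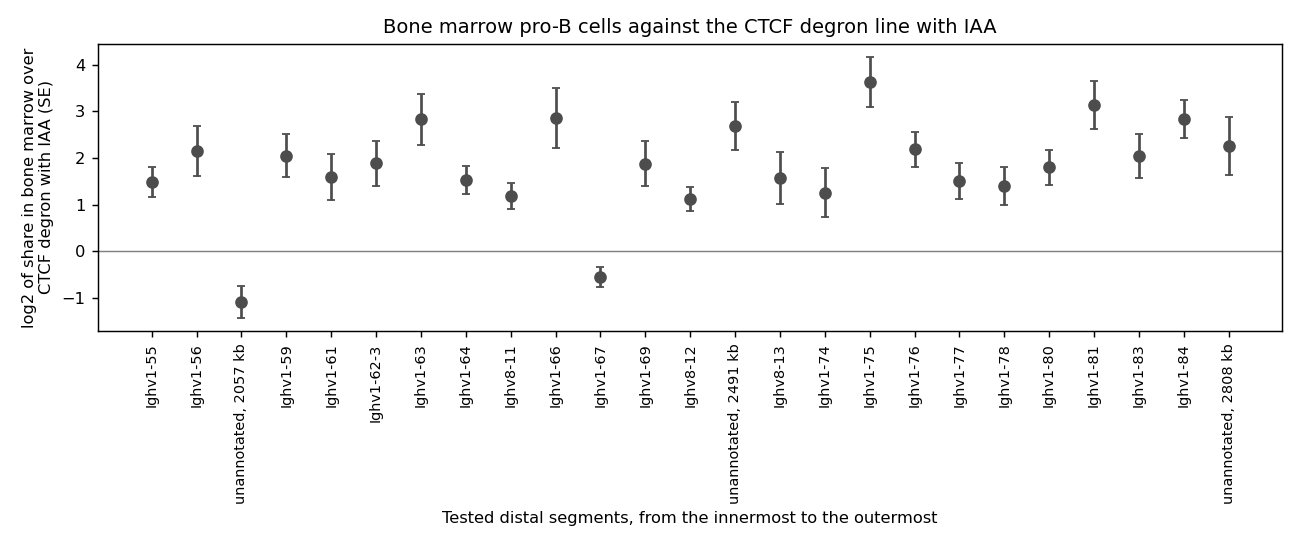
The log2 ratio of the share of all junctions in bone marrow over that in CTCFdegron with IAA for the 25 tested distal segments, ordered from the innermost to the outermost; bars are SE from limma. Ighv1-67 (-0.54) and the unannotated segment at 2057 kb (-1.08) lie below 0 and the other 23 above.

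Ighv1-67 took a far larger part of the distal junctions in CTCFdegron with IAA than elsewhere. Its part of the distal segment junctions ran from 34.1% to 65.9% over 6 replicates (median 41.7%; mean 44.7% ± 11.1), from 10.2% to 30% untreated (median 11.7%; 15.0% ± 7.67, n = 6) and from 13.8% to 18.4% in bone marrow (median 15.9%; 15.9% ± 1.72, n = 6). The replicates with IAA lay above all others of these 3 groups. With identical junctions counted once the pooled parts were 43.4%, 12.7% and 14.0%, and in a and b libraries with IAA 43.7% and 43.2%. The line with the CTCF tag only had 26.8%, 8.80%, 7.67% and 11.6% untreated and 32.6%, 13.9%, 14.1% and 19.3% with IAA, higher in 4 of 4 same-numbered pairs. In the untreated parental line it was 8.38% and 8.76% in the 2 replicates with at least 20 distal junctions. This measure was chosen after the values were seen and was not tested.

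**Figure D5:**
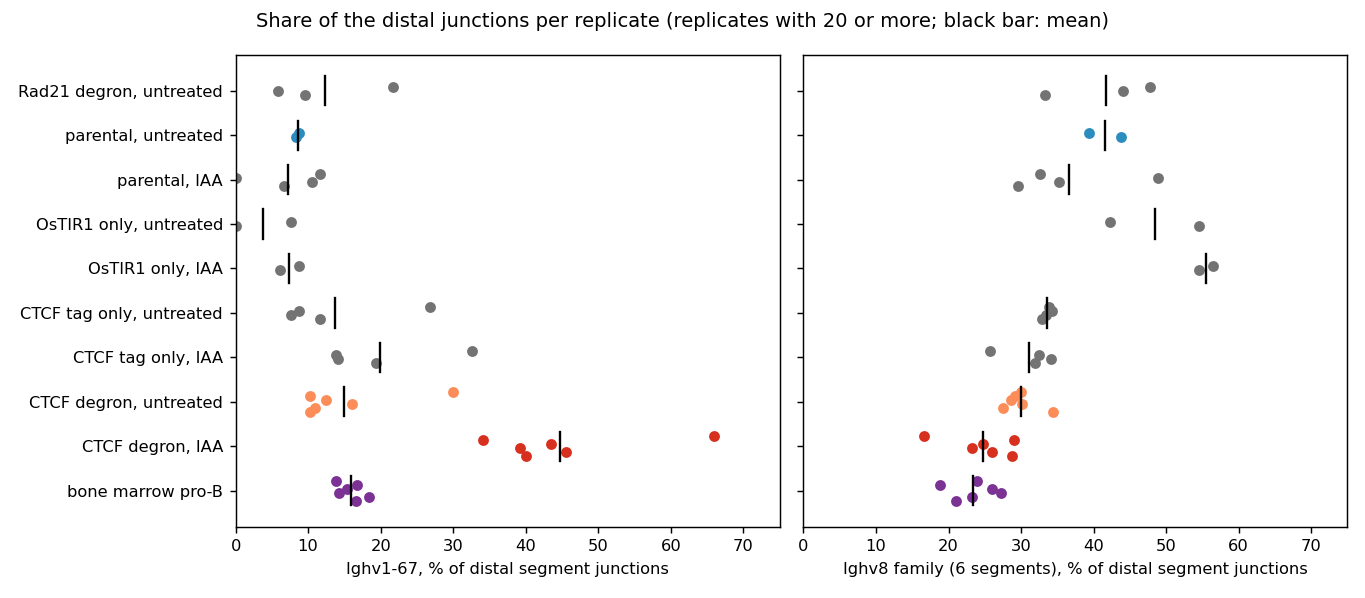
Ighv1-67 (left) and the 6 Ighv8 segments (right) as a percent of the junctions in distal segments, for 10 groups; points are replicates with at least 20 such junctions and black bars are means. Ighv1-67 lies at 34.1% to 65.9% in CTCFdegron with IAA and at 13.8% to 18.4% in bone marrow.

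The part of the Ighv8 family, 6 of the 36 segments, varied between groups. It held 41.6% ± 3.04 in the untreated parental line (2 replicates), 36.6% ± 8.55 in the parental line with IAA (29.5% to 48.9%, n = 4), 41.8% ± 7.53 in untreated Rad21degron (n = 3) and 48.4% and 55.5% in Ostir1 knock in only, untreated and with IAA (2 replicates each). It held 33.6% ± 0.570 in untreated CTCF tagging only and 31.1% ± 3.68 with IAA (n = 4 each), 29.98% ± 2.36 in untreated CTCFdegron, 24.7% ± 4.59 with IAA and 23.4% ± 3.12 in bone marrow (n = 6 each). In bone marrow Ighv8-12 and Ighv8-11 led the family. The ranges of several groups overlapped, and these values are descriptions from few segments.

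Prey sequences varied within segments. Between bases 26 and 100 from the coding end, 26 of 29 compared segments held more than 1 sequence that made up at least 5% of their reads. At Ighv1-67 there were 2, printed here because this segment carried the largest part of the distal CTCFdegron junctions; capitals mark bases that differ from mm9.
Ighv1-67 sequence 1: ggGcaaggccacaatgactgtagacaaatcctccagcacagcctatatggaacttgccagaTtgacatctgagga
Ighv1-67 sequence 2: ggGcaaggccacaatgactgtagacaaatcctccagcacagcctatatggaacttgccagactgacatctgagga
In bone marrow they made up 50.4% and 44.0% of 1169 compared reads, and in CTCFdegron with IAA 44.9% and 49.4% of 798. At Ighv8-12, 3 sequences had 49.2%, 31.2% and 11.5% in bone marrow and 40.4%, 16.6% and 35.9% in CTCFdegron with IAA. Reads of near-identical Ighv1 and Ighv8 genes could have been placed at another member of the family, and the source of the different sequences was not tested.

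Inserts of distal junctions were set against those of other VH junctions, and no difference passed the test. At distal segments the median number of bases lost from the coding end was 0 in bone marrow and in CTCFdegron with IAA, and the whole coding end was kept in 53.7% and 42.9% of junctions; ends of other VH junctions were not measured. The unaligned stretch between prey and bait, which holds the D segment, had a median of 17.5 ± 0.548 bases in bone marrow for distal and 17.0 for other VH junctions, and 15.7 ± 1.03 and 15.0 ± 0.632 in CTCFdegron with IAA (n = 6 each). It held 10 or more bases of an annotated D segment in 44.8% ± 3.72 of distal and 42.4% ± 1.03 of other VH junctions of bone marrow, and in 47.8% ± 4.24 and 45.8% ± 1.68 with IAA. Ighd1 made up 40.6% ± 2.36 of those D matches at distal and 35.5% ± 1.91 at other VH segments in bone marrow, higher in 5 of 6 replicates (exact sign-flip p = 0.0625, 0.25 after adjustment over 16 tests), and 51.8% ± 6.04 and 49.7% ± 5.37 in CTCFdegron with IAA (p = 0.188; adjusted 0.273). None of the 16 tests passed after adjustment, and the smallest p that 6 replicates allow is 0.0312. A single measure at that p could not pass after adjustment over 16 tests, so the outcome does not show that the inserts were alike. An insert read at Ighv1-67 in 2 CTCFdegron replicates with IAA shows the build of such a junction: all its 16 bases lie in Ighd1-1. The second insert, from bone marrow, carries 13 bases of Ighd2-4 (in capitals) between added bases.
Ighd1-1: TTTATTACTACGGTAGTAGCTAC
CTCFdegron insert: TTACTACGGTAGTAGC
bone marrow insert: tCTATGATTACGACggg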

How the data were processed

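The deposited tables hold 1 line for each junction, giving the prey's position, its orientation and alignment bounds and no counts. Per the labels, the authors' alignment used a genome that combines mm9 with a second source of Igh, which was not used here; the submitters' processing notes name Bowtie2 and mm9, and versions and filters are not given in the sources used here. Here, lines were tallied per library with Python 3.11.15, after a shift of -3 (a) or 3 (b) bases was removed. In the distal stretch deposited positions equal mm9 plus 390222: 18413 reads without gaps were checked, and 1909 with gaps were not compared. Peaks of at least 20 junctions, with 100 bases to either side, made segments, which were named from GENCODE annotation of mm9, BLAST 2.17.0+ and RefSeq. Shares of replicates were compared by exact two-sided permutation, and segments by limma 3.58.1 (R 4.3.3) on voom weights of tallies, with Benjamini-Hochberg adjustment. On simulated tallies, limma recovered 100% of 4-fold changes in each of the 4 comparisons, with 0 to 3 false calls. The simulation changed 23 of 70 to 47 of 143 segments, up and down by turns, with a spread set beforehand. In the real comparisons 68.1% to 95.1% of segments were called higher, so recovery under such a shift was not measured. The members, lists and tests were chosen with earlier results of these data known.

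Named segments were the innermost and outermost, the 10 most used in bone marrow and in CTCFdegron with IAA, and the 6 with the largest called change in each comparison. Deviations of same-numbered replicates correlated over 0.1 in every pair of Ostir1 knock in only (0.720 to 0.917) and CTCF tagging only (0.520 to 0.874). The best match had the same number for 3 of 4 and 4 of 4 replicates. In Ostir1 knock in only, replicates 1 and 2 lay on 1 run and 3 and 4 on another, so pairing and run cannot be told apart. In CTCF tagging only, all on 1 run, numbers were taken to pair the samples. PCR reads are not independent molecules, so intervals and limits cover counting error only. The 12 off-target libraries were not analysed here.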

Additional observations from a re-analysis of the deposited data

Results flagged for a closer look

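In 6 CTCFdegron replicates with IAA, replicate 2 stood apart at Ighv1-84 with 0.0534% of all junctions, and in bone marrow replicate 6 stood apart at Ighv1-76 with 0.274%. The part of Ighv1-67 in the distal junctions stood apart in replicate 1 of CTCFdegron both with IAA (65.9%) and untreated (30%). Of 72 groups of values examined in this way 4 stood apart, where chance gives about 1 in 20.

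The IAA response of the distal share in CTCFdegron differed from that of the parental line by 1.345 points, of Ostir1 knock in only by 1.348 points and of CTCF tagging only by 1.329 points, each by the exact permutation test of the difference given above.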

How the results depend on the processing

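Of 432 values under other settings 392, and of 656 with 1 replicate left out 637, were kept. A difference was kept if its direction and side of the threshold held, and a count of called segments if it stayed close to the main count. Settings and values that did not follow here; where no cause is named, the cause was not tested.

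Within runs, Rad21degron IAA minus untreated was 0.00241 and -0.140 points, parental -0.00756, and IGCR1 deleted 0.0869 (1.65 points of VH junctions). The IGCR1-deleted difference was -0.0104 with the border moved 0.1 Mb outward, and the parental one -0.00297 with identical junctions once. Without the Ighv1-67 peak, a setting chosen after seeing the data, IGCR1 deleted against Rad21degron was -0.0503 (-0.0367 with b libraries only, also chosen then), and the CTCFdegron difference in VH share -4.68.

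With the replicate number as a block, fewer pairs remained and no p under 0.05 was possible: IGCR1 deleted against Rad21degron gave -0.0642 (-4.17 of VH), CTCFdegron with IAA against parental 1.57 (4.73), untreated CTCFdegron against parental 0.244 (6.99) and bone marrow against parental 3.23 (8.99). The block changed no other call; it gave 1.36 points for CTCFdegron (exact sign-flip p = 0.0312), 0.0129 for Ostir1 knock in only (p = 0.25) and 0.0324 for CTCF tagging only (p = 0.125).

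For segments in CTCFdegron, median-of-ratios scaling called 1 segment higher and another 1 lower (30 and 17 of all 70), and put Ighv8-11 at -0.63 and Ighv1-80 at -0.92. VH junctions as the scale left 1 higher call and 3 lower ones (21 and 23 of all 70), and put Ighv8-12 at -0.24, Ighv1-64 at -0.39, the segment at 116886567 at -0.53, Ighv8-11 at -1.30 and Ighv1-80 at -1.52. A minimum mean of 5 gave 11 higher against parental, and median-of-ratios scaling 11 higher in bone marrow against CTCFdegron (58 of all 141).

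For D matches, Ighd1 in bone marrow differed by 5.85 with 8 bases and 5.61 with identical junctions once, and in CTCFdegron Ighd2 by 0.961 and Ighd4 by -2.72 with 8 bases.

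With 1 replicate left out, differences ranged from -0.0107 to 0.0307 (IGCR1 deleted, IAA), -0.0743 to -0.0287 and -4.91 to -2.72 of VH (IGCR1 deleted against Rad21degron), -0.000471 to 0.0249 (Ostir1 knock in only, reversed without IAA replicate 1), -0.0363 to 0.105 (CTCF tagging only, -0.0236 without IAA replicate 3 and -0.0363 without untreated replicate 1) and -4.39 to -2.18 (CTCFdegron, VH). Both Rad21degron groups with IAA are shallow.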
